A study of Bos taurus with 29 samples.

Results

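The 70 genes described here are the rows of the expression table named ATG with a number (17 autophagy genes), ATP6V (19 vacuolar ATPase genes) or VPS with a number (34 vacuolar protein sorting genes), out of 13502 listed genes. They were chosen by name, and 67 of them passed the filter on low values, a level of 1 CPM or more (CPM being a gene's reads scaled to a fixed library total) in 6 or more libraries, passed by 11852 genes in all. ATP6V1G2, ATP6V1FNB and VPS37C did not pass it and are described by their values below.

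Messenger RNA was measured in single wild-type cattle oocytes, 1 oocyte per library, from follicles of donors treated with follicle stimulating hormone (FSH). CNP_IVM oocytes were first held for 6 h with C-type natriuretic peptide (CNP) at 200 nM, in medium with FSH and without epidermal growth factor (EGF), and then 22 h in maturation medium with EGF and FSH. Ctrl_IVM oocytes had the 22 h of in vitro maturation (IVM) alone, and both kinds were at metaphase II, judged by the polar body. GV oocytes, at the germinal vesicle stage before meiosis resumes, were freed of cumulus cells at collection. The values are those of 7 CNP_IVM, 8 Ctrl_IVM and 7 GV oocytes; 7 other samples in the labels were not analysed here. CNP_IVM oocytes were in culture for 28 h and Ctrl_IVM oocytes for 22 h, so CNP and time in culture cannot be told apart. No oocyte's donor or culture is named in the labels, so each group counts as 1 sample and no test between groups was possible. All statements below describe these oocytes by the size of a difference and by whether the groups overlap.

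Autophagy wraps cytoplasm in a double membrane and delivers it to the lysosome. ATG proteins start that membrane, supply its lipids and attach ATG8 proteins to it. The vacuolar ATPase pumps protons into lysosomes and endosomes through a membrane sector, V0, driven by a cytosolic sector, V1, that splits ATP. VPS proteins sort cargo between endosomes, Golgi and lysosomes in complexes such as retromer, HOPS, CORVET, GARP and the ESCRT complexes. In mouse, autophagy is induced after fertilization.

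Library totals, recovered from the values, were 20159662 to 39340040 reads. Genes at 1 CPM or more numbered 9429 to 9834 in CNP_IVM, 9431 to 10783 in Ctrl_IVM and 9381 to 11798 in GV oocytes. GV replicate 9 stood apart. Its title places it in GV while its treatment field reads in vitro maturation. It was the GV library with 9381 genes, where the other 6 had 11311 to 11798. It held the lowest GV value of 34 of the 67 members and the highest of 19. It had 0 reads of 17 members, which allows a level of up to 0.0817 CPM each (3 reads), while the other 6 GV oocytes had reads of all 67. Summed oocyte markers (12 of 12 detected, none at 0 in a group) were 5942 to 8319.9 CPM in CNP_IVM, 8525 to 13867 CPM in Ctrl_IVM and 13150.2 to 22365 CPM in GV oocytes. Most of the 12 had lower means in matured oocytes. ZP3 averaged 172 CPM in CNP_IVM, 644 CPM in Ctrl_IVM and 3058 CPM in GV, where it ranged from 1530 to 8420 CPM. BMP15 (1219, 2250 and 764 CPM) and DAZL (101, 53.7 and 22.7 CPM) went the other way. ZP2 changed little (3118, 3444 and 3134 CPM). Of 20 cumulus and granulosa cell markers, 16 were listed. Their sum was 258 to 347 CPM in CNP_IVM, 382 to 657 CPM in Ctrl_IVM and 645 to 1034 CPM in GV oocytes. Of the 16, 10 averaged 1 CPM or more in CNP_IVM, 11 in Ctrl_IVM and 13 in GV, and none was at 0 in a whole group. These markers did not move alike. STAR averaged 93.9 CPM in CNP_IVM, 316 CPM in Ctrl_IVM and 657 CPM in GV, and it set the order of the sums. HAS2 averaged 118 CPM in CNP_IVM, 77.1 CPM in Ctrl_IVM and 16.3 CPM in GV, and PTGS2 averaged 37.6, 38.0 and 13.4 CPM. INHA averaged 0.358 CPM in CNP_IVM, 0.723 CPM in Ctrl_IVM and 15.7 CPM in GV. Its GV oocytes ranged from 0.351 to 59.7 CPM with a median of 2.52 CPM. FSHR and CYP11A1 stayed under 1 CPM on average in each group. Of 10 blood and immune cell markers, 5 were listed, summing to 3.53 to 25.7 CPM in CNP_IVM, 8.42 to 46.8 CPM in Ctrl_IVM and 173 to 362 CPM in GV oocytes. VWF held most of that, averaging 11.2 CPM in CNP_IVM, 21.1 CPM in Ctrl_IVM and 225 CPM in GV. CD3E averaged 1.27, 3.55 and 29.4 CPM in the same groups. CD68, HBA and PECAM1 averaged under 1 CPM in each group, and CD68 had no read in any CNP_IVM oocyte. These sums and the number of detected genes moved with the groups in every comparison below, and their part in the results was not tested.

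In matured oocytes the subunits of single complexes went in different directions, as genes of the whole table did by the shares given below. Some members were several-fold higher than in GV oocytes, among them ATP6V1A, VPS35, VPS26A, VPS13A, VPS13C and ATG14, and more were lower, among them ATP6V1F, ATP6V1E1, VPS29, ATG101 and ATG7. Against GV, 11 of the 67 members kept (16.4%) were higher in CNP_IVM oocytes by 2-fold or more and 34 (50.7%) were lower by as much, where 15.3% and 42.0% of all 11852 genes were. In Ctrl_IVM oocytes 12 (17.9%) were higher than in GV by 2-fold or more and 29 (43.3%) were lower by as much, where 15.9% and 33.0% of all genes were. The shares of higher members lay near those of all genes, and the shares of lower members lay somewhat above them. Differences are log2 ratios of group means after adding 1 CPM, which understates those of low genes. Both comparisons use the same GV oocytes. The filter on low values can be met by GV oocytes alone or by matured oocytes alone. Genes nearly absent from matured oocytes, such as ATG4B and VPS37D, passed it on their GV values and could hardly be counted as anything but lower. The reverse holds for genes nearly absent from GV. The shares of all genes carry the same limit, as do the subgroup counts below, and its part in them was not tested.

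The median log2 difference of the 67 members was -1.15 for CNP_IVM and -0.59 for Ctrl_IVM against GV, beside -0.61 and -0.28 over all genes. Scaling by trimmed-mean (TMM) factors moved the all-gene medians to -0.17 and -0.072, and those of the members to -0.81 and -0.36. With TMM factors 19 members were higher and 30 lower in CNP_IVM than in GV, and 15 higher and 26 lower in Ctrl_IVM than in GV. Over all genes the split against GV was 1818 higher and 4977 lower in CNP_IVM, or 2979 and 4000 with TMM factors, and 1880 higher and 3917 lower in Ctrl_IVM, or 2556 and 3432. Without GV replicate 9 the counts were 8 higher and 34 lower in CNP_IVM and 13 higher and 28 lower in Ctrl_IVM. Over all genes they were then 1763 higher and 4796 lower in CNP_IVM and 1940 higher and 3761 lower in Ctrl_IVM. Every CNP_IVM oocyte lay above every GV oocyte for 9 members and below for 23, where the background was 12.9% and 28.0% of all genes. Every Ctrl_IVM oocyte lay above every GV oocyte for 11 members and below for 16, beside 11.5% and 19.9% of all genes.

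**Figure D1:**
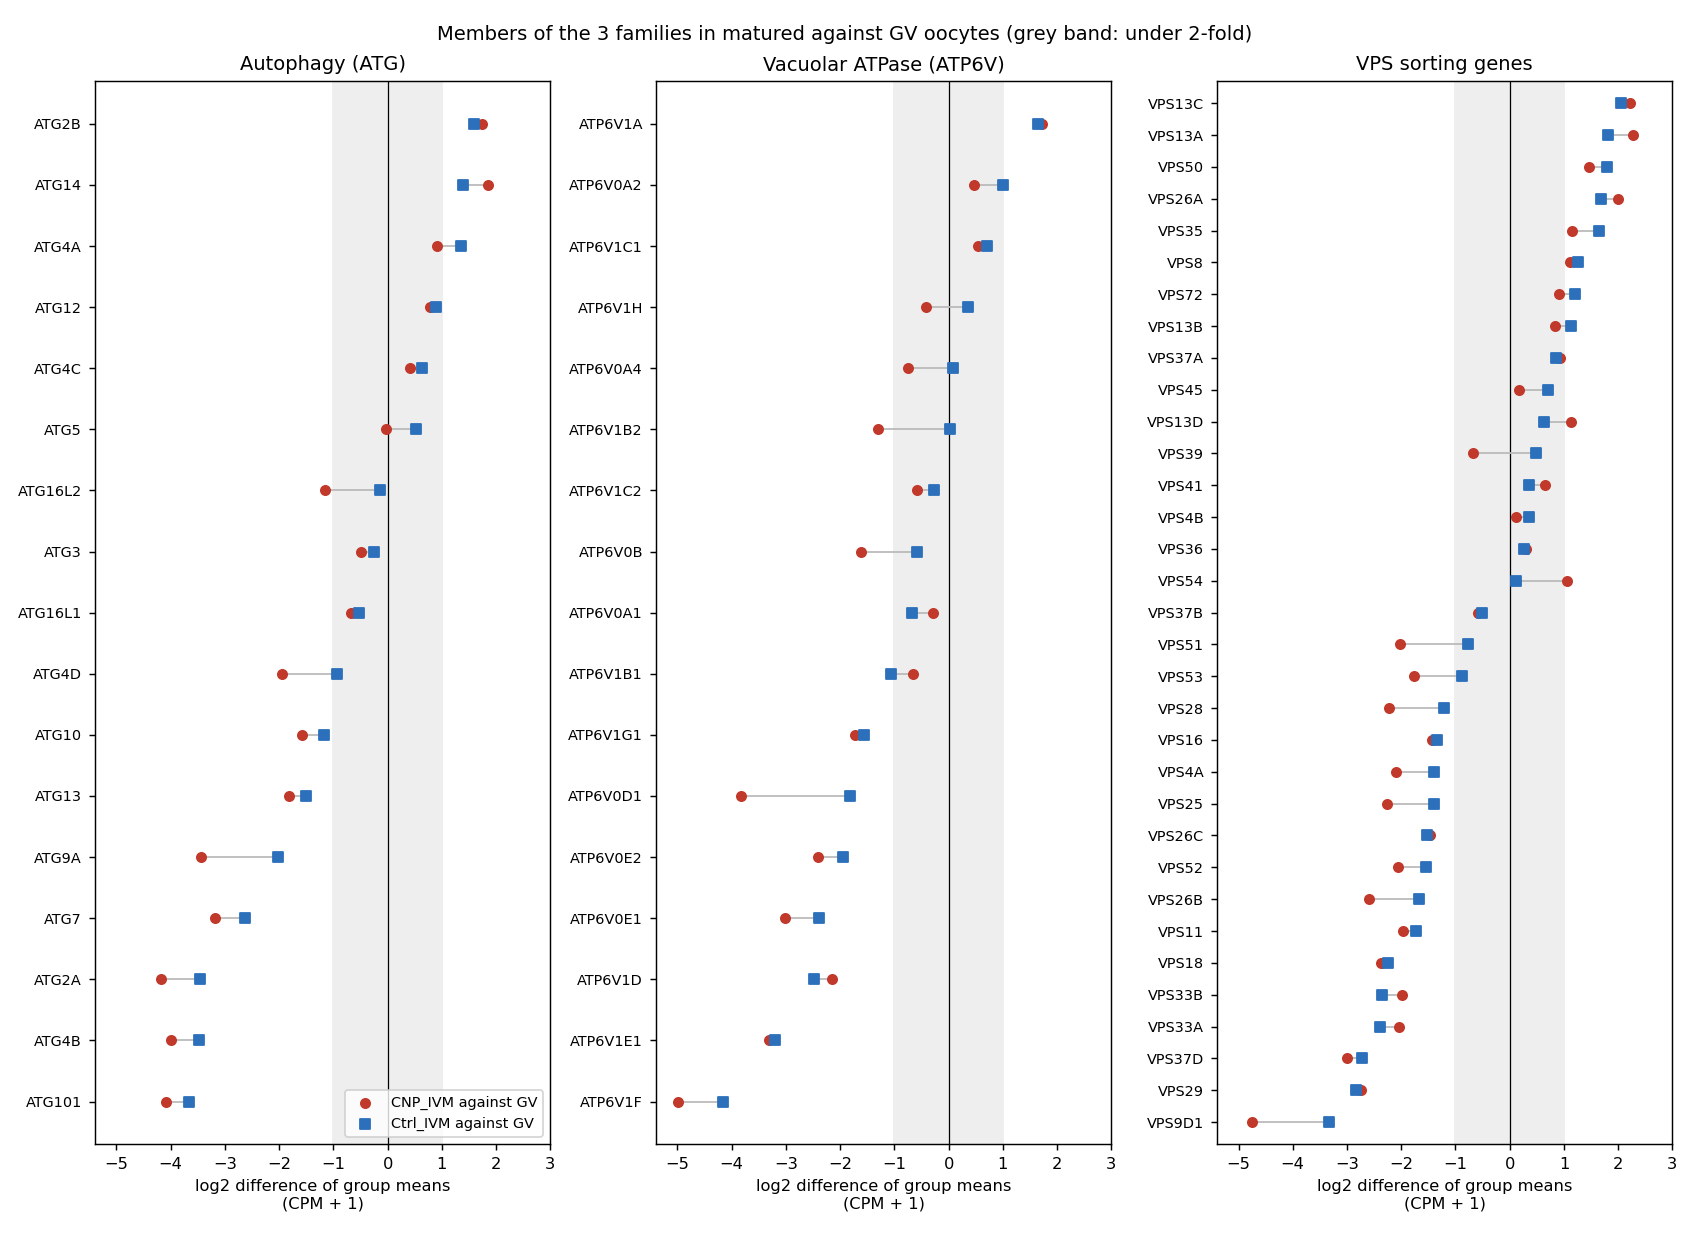
Log2 differences of group means (CPM + 1) against GV oocytes for the 67 members past the filter, in 3 panels by family. Red circles are CNP_IVM against GV, blue squares Ctrl_IVM against GV, and the grey band holds differences under 2-fold; the lowest points are ATP6V1F (-4.98 and -4.17) and the highest VPS13A (2.28) and VPS13C (2.05).

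In the cytosolic V1 sector, the catalytic subunit gene ATP6V1A was higher in matured oocytes, while most genes of the stalk and stator were lower. ATP6V1A stood at 41.8 to 93.2 CPM (median 65.4) in CNP_IVM and 50.2 to 86.4 CPM (median 59.7) in Ctrl_IVM, against 14.8 to 23.1 CPM (median 19.3) in GV. Every matured oocyte lay above every GV oocyte, with log2 differences of 1.71 for CNP_IVM and 1.66 for Ctrl_IVM against GV. ATP6V1F, a subunit of the rotating stalk, stood at 6.25 to 16.9 CPM (median 11.4) in CNP_IVM and 11.8 to 41.8 CPM (median 18.8) in Ctrl_IVM, against 218 to 585 CPM (median 417) in GV. All matured oocytes lay far below all GV oocytes, and the log2 differences of -4.98 for CNP_IVM and -4.17 for Ctrl_IVM were the lowest of any member. ATP6V1E1, of the stator that holds the catalytic head in place, stood at 18.4 to 38.8 CPM (median 32.2) in CNP_IVM and 17.02 to 50.8 CPM (median 28.6) in Ctrl_IVM, against 152 to 378 CPM (median 320.3) in GV, again without overlap (-3.31 and -3.20 on the log2 scale). ATP6V1D, the other stalk subunit, stood at 2.10 to 7.76 CPM (median 4.54) in CNP_IVM and 1.64 to 10.2 CPM (median 2.45) in Ctrl_IVM, against 14.6 to 32.02 CPM (median 23.5) in GV. ATP6V1G1, of the stator, stood at 30.3 to 63.9 CPM (median 53.2) in CNP_IVM and 33.7 to 91.8 CPM (median 54.8) in Ctrl_IVM, against 119 to 218 CPM (median 186) in GV. For both genes, all matured oocytes lay below all GV oocytes.

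The stator gene ATP6V1C1 was in the other direction, at 223 to 384 CPM (median 300.4) in CNP_IVM and 276 to 411 CPM (median 316) in Ctrl_IVM, against 176 to 233 CPM (median 209) in GV. Every Ctrl_IVM oocyte lay above every GV oocyte and the CNP_IVM range overlapped that of GV, with log2 differences of 0.53 for CNP_IVM and 0.71 for Ctrl_IVM, both under 2-fold. ATP6V1B2, the B subunit beside ATP6V1A in the catalytic head, stood at 52.8 to 112 CPM (median 83.6) in CNP_IVM and 100.3 to 325 CPM (median 209.6) in Ctrl_IVM, against 63.4 to 272 CPM (median 231) in GV. The lowest GV value was that of replicate 9, and the other 6 GV oocytes had 210.1 to 272 CPM, above every CNP_IVM oocyte and inside the Ctrl_IVM range. Its log2 difference from GV was -1.31 in CNP_IVM, which TMM factors moved to -0.81, and 0.029 in Ctrl_IVM. Its paralog ATP6V1B1, known from acid-secreting cells of kidney and inner ear, was at 0.0512 to 2.96 CPM (median 0.420) in CNP_IVM, 0 to 1.30 CPM (median 0.545) in Ctrl_IVM and 0 to 4.53 CPM (median 1.90) in GV. ATP6V1H, a regulatory subunit, stood at 21.95 to 50.4 CPM (median 35.4) in CNP_IVM and 36.7 to 118 CPM (median 56.5) in Ctrl_IVM, against 35.4 to 69.8 CPM (median 43.6) in GV. ATP6V1C2 stood at 16.97 to 36.3 CPM (median 21.96) in CNP_IVM and 13.5 to 56.3 CPM (median 32.4) in Ctrl_IVM, against 24.7 to 50.6 CPM (median 41.1) in GV. Both had overlapping groups and stayed under 2-fold. The shares of all genes to set beside this and each later subgroup count against GV are 15.3% higher and 42.0% lower in CNP_IVM. In Ctrl_IVM they are 15.9% and 33.0%. Over the 10 V1 genes past the filter, of 12 listed, 1 was higher and 5 lower by 2-fold or more in CNP_IVM, and 1 was higher and 5 lower in Ctrl_IVM, against GV, with medians of -0.99 in CNP_IVM and -0.67 in Ctrl_IVM. TMM factors gave 2 higher and 4 lower in CNP_IVM and 1 higher and 4 lower in Ctrl_IVM (medians -0.59 and -0.45). Leaving out GV replicate 9 gave 1 higher and 5 lower in CNP_IVM and 1 higher and 5 lower in Ctrl_IVM (medians -1.15 and -0.72). ATP6V1G2, a stator paralog, and ATP6V1FNB, named as a neighbour of ATP6V1F, were below the filter and reached at most 2.45 and 2.28 CPM in any oocyte, both in GV.

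Of the 7 membrane V0 sector genes, none was at least 2-fold higher than in GV, 4 were lower in CNP_IVM and 3 in Ctrl_IVM, and the medians were -1.61 in CNP_IVM and -0.67 in Ctrl_IVM. With TMM factors ATP6V0A2 reached 1.005 and 1.20, so 1 member was then counted as higher in each. ATP6V0E1, a small membrane subunit, stood at 30.03 to 49.8 CPM (median 38.6) in CNP_IVM and 37.3 to 95.5 CPM (median 57.4) in Ctrl_IVM, against 269.7 to 469 CPM (median 297) in GV, with no overlap and log2 differences of -3.02 for CNP_IVM and -2.40 for Ctrl_IVM. ATP6V0D1, which couples the membrane rotor to the central stalk, stood at 2.90 to 16.3 CPM (median 12.5) in CNP_IVM and 22 to 91.5 CPM (median 48.8) in Ctrl_IVM, against 143 to 209 CPM (median 184) in GV. The 3 groups were fully apart for this gene, with GV highest and CNP_IVM lowest. ATP6V0B, a subunit of the proton-carrying ring, stood at 36.4 to 86.7 CPM (median 41.7) in CNP_IVM and 79.7 to 151 CPM (median 102) in Ctrl_IVM, against 91.1 to 214 CPM (median 155) in GV, so that CNP_IVM oocytes were all below GV oocytes and Ctrl_IVM oocytes were not. The large a subunits, which hold the proton channels, differed less. ATP6V0A1 stood at 27.9 to 69.8 CPM (median 37.5) in CNP_IVM and 16.1 to 49.98 CPM (median 29.5) in Ctrl_IVM, against 46.2 to 57.5 CPM (median 53.7) in GV (-0.30 and -0.67; the CNP_IVM difference turned to 0.23 with TMM factors). ATP6V0A2 stood at 12.5 to 23.3 CPM (median 18.2) in CNP_IVM and 16.5 to 46.04 CPM (median 21.5) in Ctrl_IVM, against 4.90 to 23.98 CPM (median 12.9) in GV, a log2 difference of 0.996 for Ctrl_IVM, just under 2-fold, that was 1.20 without GV replicate 9. ATP6V0A4 and ATP6V0E2 had means under 5 CPM in each group.

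**Figure D2:**
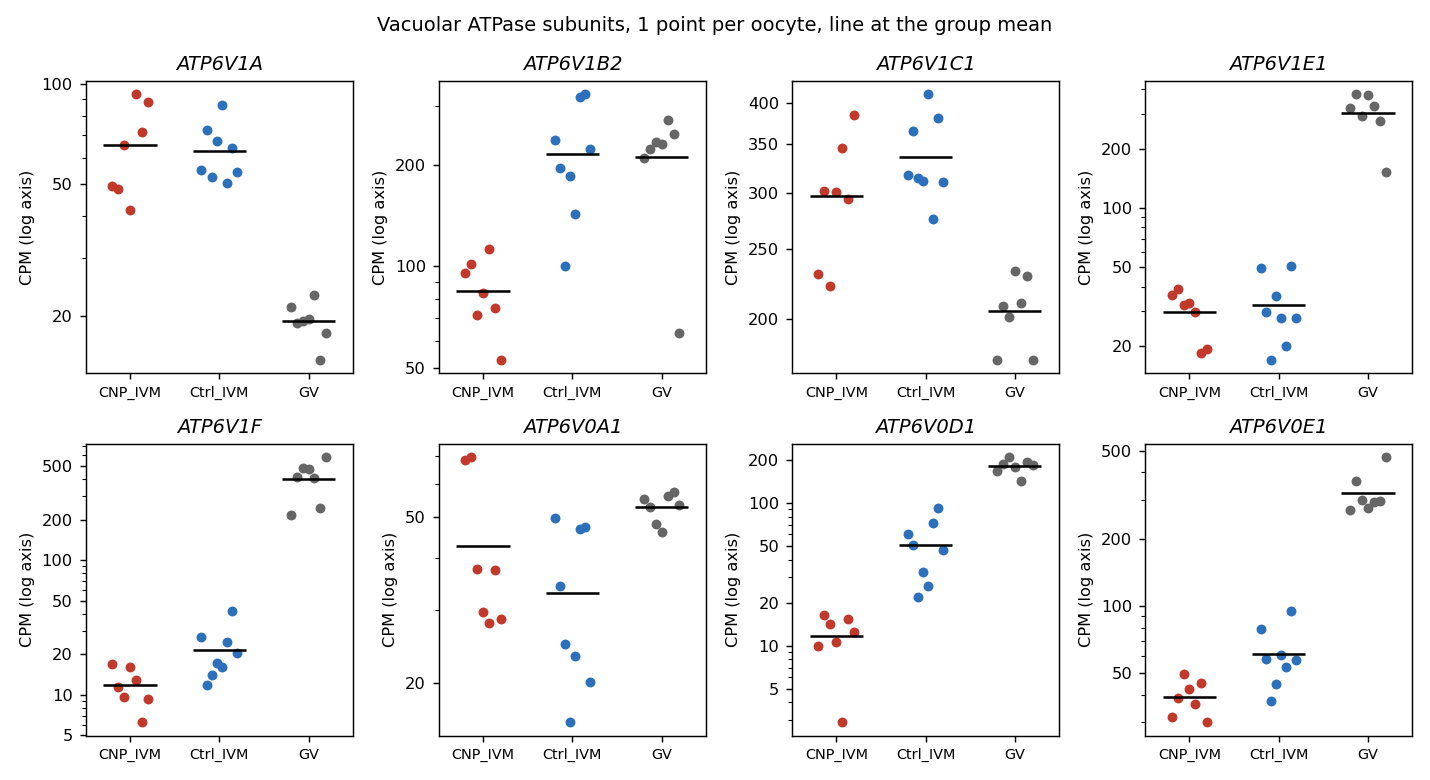
CPM of 8 vacuolar ATPase subunit genes on log axes, with 1 point per oocyte and a black line at each group's mean, for 7 CNP_IVM, 8 Ctrl_IVM and 7 GV oocytes. ATP6V1A is higher in all matured oocytes, ATP6V1E1, ATP6V1F and ATP6V0E1 are lower in all of them, and ATP6V0D1 falls into 3 separate levels.

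Ratios of reads of 2 genes in the same oocyte do not depend on how libraries are scaled. The pairs were chosen after the values had been seen, and each ratio depends on transcript length, so only its difference between groups is described. ATP6V1F reads per ATP6V1A read were 0.0869 to 0.389 (median 0.149) in CNP_IVM and 0.162 to 0.651 (median 0.322) in Ctrl_IVM, against 10.3 to 32.8 (median 21.9) in GV oocytes. ATP6V1E1 reads per ATP6V1C1 read were 0.0503 to 0.157 (median 0.110) in CNP_IVM and 0.0542 to 0.156 (median 0.0848) in Ctrl_IVM, against 0.865 to 1.82 (median 1.56) in GV. Within V0, ATP6V0D1 reads per ATP6V0A1 read were 0.104 to 0.439 (median 0.356) in CNP_IVM, 0.884 to 2.31 (median 1.51) in Ctrl_IVM and 2.54 to 4.33 (median 3.43) in GV oocytes. The first 2 ratios separated matured from GV oocytes, and the V0 ratio separated all 3 groups. ATP6V1F and ATP6V1A were each already apart in opposite directions, so their ratio had to separate. ATP6V1E1 alone already separated matured from GV oocytes, and ATP6V0D1 alone separated all 3 groups. Not every pair computed separated matured from GV oocytes. ATP6V1B2 reads per ATP6V1A read reached 6.34 in Ctrl_IVM, and VPS4A reads per VPS4B read reached 10.7. The lowest GV ratios were 3.56 and 9.59, both in replicate 9.

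**Figure D3:**
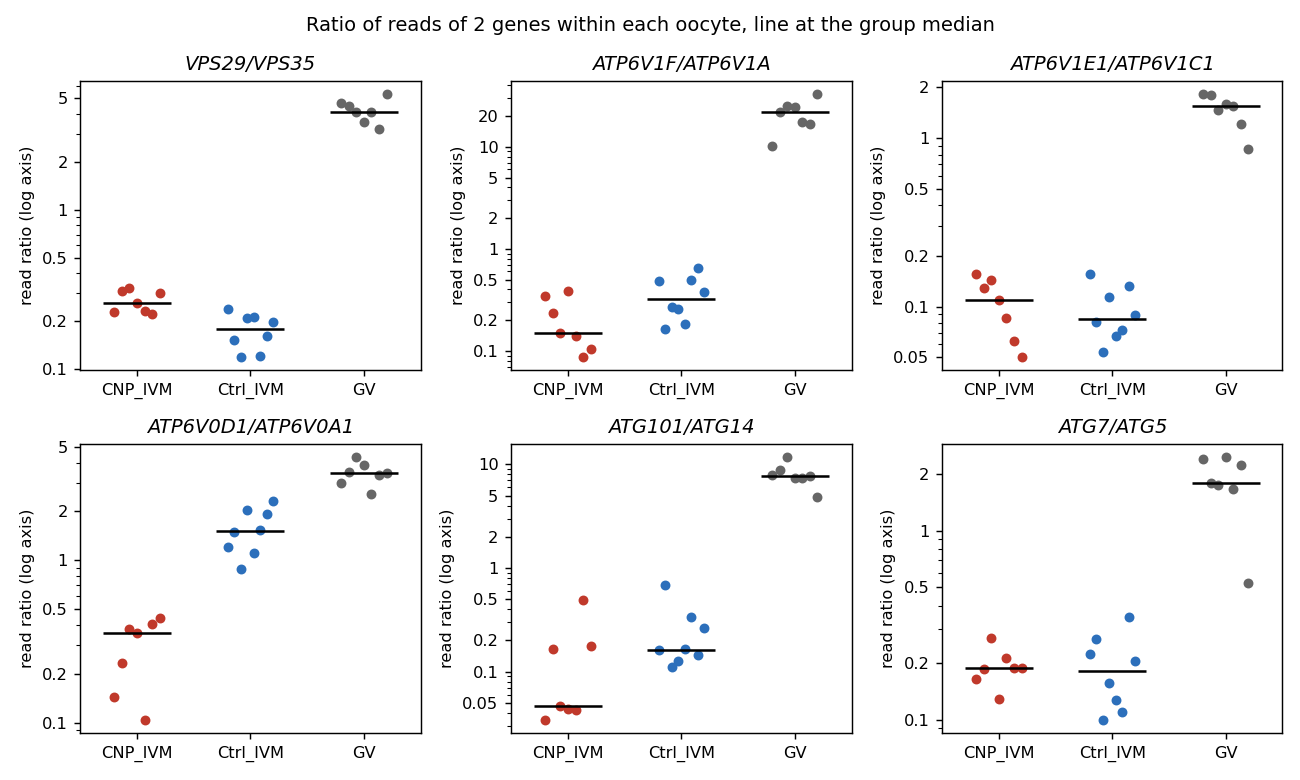
Ratios of reads of 2 genes of a shared complex or pathway within each oocyte, on log axes, with a black line at each group's median, for 7 CNP_IVM, 8 Ctrl_IVM and 7 GV oocytes. The pairs were chosen after the values had been seen, and some pairs not drawn overlap. In all 6 panels every matured oocyte lies below every GV oocyte, and in the ATP6V0D1/ATP6V0A1 panel CNP_IVM oocytes also lie below all Ctrl_IVM oocytes. In each panel the level of the first gene alone already separated matured from GV oocytes.

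Autophagy starts with a kinase complex that holds ATG13 and ATG101, a lipid kinase complex directed by ATG14, and membrane supply through ATG9 and the lipid carriers ATG2A and ATG2B. All 6 listed genes of this group were at least 2-fold away from GV. Of them, 2 were higher and 4 lower by 2-fold or more in CNP_IVM, and 2 were higher and 4 lower in Ctrl_IVM, and the medians were -2.64 in CNP_IVM and -1.77 in Ctrl_IVM. Over all genes 15.3% were higher and 42.0% lower in CNP_IVM, and 15.9% and 33.0% in Ctrl_IVM. TMM factors gave 2 higher and 4 lower in CNP_IVM and 2 higher and 4 lower in Ctrl_IVM (medians -2.15 and -1.49). Without GV replicate 9 there were 2 higher and 4 lower in CNP_IVM and 2 higher and 3 lower in Ctrl_IVM (medians -1.43 and -0.56). ATG101 stood at 2.51 to 18.96 CPM (median 3.96) in CNP_IVM and 5.22 to 18.6 CPM (median 9.73) in Ctrl_IVM, against 75.2 to 200.4 CPM (median 149.7) in GV. No matured oocyte reached the GV range, with log2 differences of -4.09 for CNP_IVM and -3.67 for Ctrl_IVM. ATG14 went the other way, at 38.9 to 116 CPM (median 59.9) in CNP_IVM and 25.4 to 80.5 CPM (median 50.6) in Ctrl_IVM, against 14.7 to 26.05 CPM (median 17.4) in GV. All CNP_IVM oocytes lay above all GV oocytes, while the lowest Ctrl_IVM oocyte overlapped the highest of GV. ATG13 stood at 4.76 to 10.004 CPM (median 6.14) in CNP_IVM and 2.28 to 24.5 CPM (median 8.70) in Ctrl_IVM, against 13.3 to 62.7 CPM (median 26.2) in GV, and its highest GV value was that of replicate 9.

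The ATG2 paralogs differed in direction. ATG2A stood at 0.257 to 2.04 CPM (median 1.45) in CNP_IVM and 0.0992 to 6.61 CPM (median 2.59) in Ctrl_IVM, against 3.59 to 140.5 CPM (median 23.9) in GV, where the GV maximum was replicate 9 and the other 6 GV oocytes reached 37.9 CPM. Its log2 differences of -4.17 for CNP_IVM and -3.46 for Ctrl_IVM became -3.36 and -2.65 without that oocyte. ATG2B stood at 5.46 to 18.1 CPM (median 11.97) in CNP_IVM and 5.31 to 20.3 CPM (median 9.61) in Ctrl_IVM, against 0 to 5.32 CPM (median 3.0) in GV, 1.74 and 1.59 on the log2 scale, and GV replicate 9 had no ATG2B read. ATG9A, the membrane protein of the seed vesicles, rested on the same oocyte. It stood at 0 to 0.230 CPM (median 0.0523) in CNP_IVM and 0 to 5.21 CPM (median 1.45) in Ctrl_IVM, against 1.27 to 2.15 CPM in 6 GV oocytes and 64.5 CPM in GV replicate 9. Without replicate 9 its log2 difference changed to -1.35 for CNP_IVM, where it had been -3.45, and turned to 0.073 for Ctrl_IVM, where it had been -2.03.

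The conjugation systems attach ATG12 to ATG5 and ATG8 proteins to lipid. Of their 11 genes, 0 were higher and 5 lower by 2-fold or more in CNP_IVM, and 1 was higher and 3 lower in Ctrl_IVM against GV, with medians of -0.68 in CNP_IVM and -0.25 in Ctrl_IVM. TMM factors gave 2 higher and 4 lower in CNP_IVM and 2 higher and 2 lower in Ctrl_IVM (medians -0.18 and -0.073). With GV replicate 9 left out there were 0 higher and 5 lower in CNP_IVM and 1 higher and 4 lower in Ctrl_IVM (medians -0.79 and -0.28). ATG7, the activating enzyme of both systems, stood at 10.96 to 19.9 CPM (median 14.8) in CNP_IVM and 12.01 to 40.8 CPM (median 20.2) in Ctrl_IVM, against 53.4 to 190.0 CPM (median 153) in GV. All matured oocytes lay below all GV oocytes, GV replicate 9 included, which was the lowest of GV. ATG5 had other values, at 64.7 to 109 CPM (median 78.7) in CNP_IVM and 98.3 to 143 CPM (median 117) in Ctrl_IVM, against 68.8 to 101 CPM (median 78.4) in GV. Ctrl_IVM oocytes lay above the 6 GV oocytes other than replicate 9, and CNP_IVM and GV oocytes overlapped, with log2 differences of -0.026 for CNP_IVM and 0.53 for Ctrl_IVM; TMM factors turned the CNP_IVM value to 0.52. ATG12 stood at 52.2 to 79.7 CPM (median 66.3) in CNP_IVM and 59.2 to 92.4 CPM (median 71.6) in Ctrl_IVM, against 14.01 to 54.1 CPM (median 38.2) in GV, and every Ctrl_IVM oocyte was above every GV oocyte. ATG3, the enzyme that passes ATG8 to lipid, stood at 27.7 to 55.7 CPM (median 47.6) in CNP_IVM and 27.3 to 72.7 CPM (median 56.1) in Ctrl_IVM, against 39.1 to 110.3 CPM (median 58.4) in GV. Its groups overlapped. ATG16L1, which places the ATG12 and ATG5 pair on the membrane, stood at 4.16 to 15.5 CPM (median 9.13) in CNP_IVM and 4.24 to 16.7 CPM (median 12.2) in Ctrl_IVM, against 7.52 to 19.3 CPM (median 16.2) in GV.

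The ATG4 proteases, which trim ATG8 proteins, divided as well. ATG4A stood at 11.5 to 25.2 CPM (median 13.3) in CNP_IVM and 14.3 to 31.3 CPM (median 19.6) in Ctrl_IVM, against 0 to 11.9 CPM (median 8.16) in GV, with log2 differences of 0.91 for CNP_IVM and 1.36 for Ctrl_IVM. Every Ctrl_IVM oocyte lay above every GV oocyte. ATG4B stood at 0 to 0.687 CPM (median 0) in CNP_IVM and 0 to 1.997 CPM (median 0.0342) in Ctrl_IVM, against 0 to 35.9 CPM (median 13.9) in GV, where 0 was that of replicate 9 and the other 6 GV oocytes had 12.1 CPM or more, above all matured oocytes. ATG4C overlapped between groups at a median of 5.70 CPM in CNP_IVM, 6.78 CPM in Ctrl_IVM and 4.04 CPM in GV oocytes. ATG4D, ATG10 and ATG16L2 had group means under 5 CPM. Reads of ATG7 per ATG5 read were 0.128 to 0.270 (median 0.187) in CNP_IVM and 0.0998 to 0.351 (median 0.180) in Ctrl_IVM, against 0.528 to 2.46 (median 1.79) in GV oocytes. Reads of ATG101 per ATG14 read were 0.0342 to 0.488 (median 0.0461) in CNP_IVM and 0.110 to 0.682 (median 0.163) in Ctrl_IVM, against 4.88 to 11.8 (median 7.70) in GV. Both ratios were lower in every matured oocyte than in any GV oocyte. ATG7 and ATG101 alone already separated matured from GV oocytes, so the ratios are no independent result.

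Retromer returns receptors from endosomes and is built of VPS35, VPS26 and VPS29. Its subunits moved apart with maturation. VPS35, the scaffold, stood at 115 to 171 CPM (median 142) in CNP_IVM and 160.0 to 248 CPM (median 190.4) in Ctrl_IVM, against 27.4 to 95.7 CPM (median 62.3) in GV. VPS26A stood at 98.4 to 134 CPM (median 108) in CNP_IVM and 61.2 to 117 CPM (median 87.4) in Ctrl_IVM, against 15.2 to 35.8 CPM (median 28.6) in GV. For both genes all matured oocytes lay above all GV oocytes, with log2 differences of 1.15 and 1.99 for CNP_IVM and 1.64 and 1.68 for Ctrl_IVM. VPS29, the third subunit, stood at 28.7 to 44.4 CPM (median 37.3) in CNP_IVM and 23.9 to 52.5 CPM (median 31.04) in Ctrl_IVM, against 146 to 340.4 CPM (median 265) in GV, lower in every matured oocyte, with log2 differences of -2.74 for CNP_IVM and -2.84 for Ctrl_IVM. VPS29 reads per VPS35 read were 0.221 to 0.324 (median 0.259) in CNP_IVM and 0.120 to 0.240 (median 0.180) in Ctrl_IVM, against 3.20 to 5.32 (median 4.13) in GV oocytes. VPS29 and VPS35 were each already apart from GV in opposite directions, so this ratio had to separate matured from GV oocytes. GV replicate 9, which had the lowest GV level of all 3 genes, was also bound to lie on the GV side. VPS26B, a paralog of VPS26A, had lower means in matured oocytes, at 0.252 to 4.84 CPM (median 1.16) in CNP_IVM and 0.343 to 8.46 CPM (median 3.73) in Ctrl_IVM, against 7.41 to 25.5 CPM (median 12.04) in GV. Ctrl_IVM overlapped GV. VPS26C, which takes the VPS26 place in the related retriever complex, stood at 5.91 to 33.5 CPM (median 12.8) in CNP_IVM and 6.002 to 44.3 CPM (median 10.6) in Ctrl_IVM, against 26.2 to 73.7 CPM (median 49.1) in GV.

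The VPS13 proteins are long channels that carry lipid between membranes, and VPS13A to VPS13D all had higher means in both matured groups than in GV. Of all 11852 genes, 4333 in CNP_IVM and 5089 in Ctrl_IVM had higher means than in GV. By 2-fold or more, 3 of the 4 were higher in CNP_IVM and 3 in Ctrl_IVM, beside 15.3% and 15.9% of all genes. Without GV replicate 9 these were 2 in CNP_IVM and 3 in Ctrl_IVM. VPS13A stood at 25.5 to 46.2 CPM (median 37.8) in CNP_IVM and 13.7 to 39.95 CPM (median 30.3) in Ctrl_IVM, against 0 to 10.4 CPM (median 8.08) in GV. VPS13C stood at 38.4 to 76.9 CPM (median 48.5) in CNP_IVM and 36.2 to 78.98 CPM (median 40.8) in Ctrl_IVM, against 0 to 14.4 CPM (median 11.9) in GV. All matured oocytes lay above all GV oocytes, and the 0 of GV was replicate 9 for each. Their log2 differences were 2.28 and 2.22 for CNP_IVM and 1.81 and 2.05 for Ctrl_IVM, and without replicate 9 they were 2.08 and 2.02 for CNP_IVM and 1.61 and 1.85 for Ctrl_IVM. VPS13B stood at 79.5 to 181 CPM (median 107) in CNP_IVM and 102 to 187 CPM (median 144) in Ctrl_IVM, against 48.97 to 83.04 CPM (median 64.3) in GV, above GV in every Ctrl_IVM oocyte. VPS13D stood at 5.47 to 17.1 CPM (median 13.9) in CNP_IVM and 3.41 to 12.5 CPM (median 8.94) in Ctrl_IVM, against 0 to 7.50 CPM (median 5.11) in GV, with overlap, and its log2 difference of 1.12 for CNP_IVM was 0.94 without GV replicate 9.

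**Figure D4:**
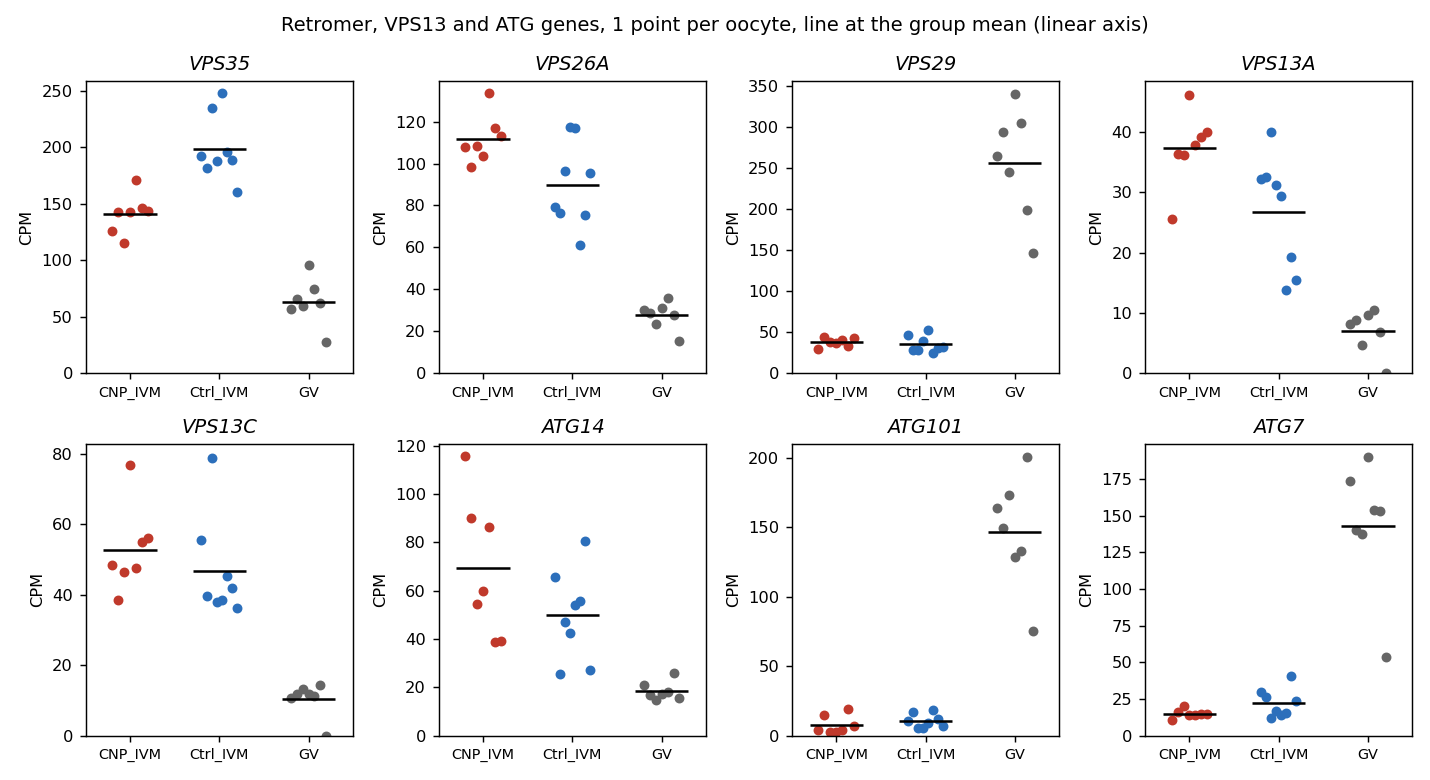
CPM of 3 retromer genes, VPS13A, VPS13C and 3 ATG genes on linear axes from 0, with 1 point per oocyte and a black line at each group's mean, for 7 CNP_IVM, 8 Ctrl_IVM and 7 GV oocytes. VPS35, VPS26A, VPS13A and VPS13C are higher and VPS29, ATG101 and ATG7 lower in every matured oocyte than in any GV oocyte; ATG14 is higher, with an overlap between Ctrl_IVM and GV.

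HOPS and CORVET tether endosomes and lysosomes before they fuse, on a shared core of VPS11, VPS16, VPS18 and VPS33A. All 4 core genes had lower means in matured oocytes, and among the genes of the specific ends only VPS39 in CNP_IVM did. A lower mean was common, found in 7519 of all 11852 genes for CNP_IVM and 6763 for Ctrl_IVM against GV. VPS33A stood at 1.95 to 14.4 CPM (median 10.4) in CNP_IVM and 2.43 to 11.4 CPM (median 6.07) in Ctrl_IVM, against 27.7 to 60.6 CPM (median 35.1) in GV, below GV in every matured oocyte (-2.04 and -2.39 on the log2 scale). VPS16 stood at 5.21 to 30.2 CPM (median 19.3) in CNP_IVM and 1.30 to 69.6 CPM (median 16.9) in Ctrl_IVM, against 31.2 to 116 CPM (median 36.9) in GV, and its log2 difference of -1.33 for Ctrl_IVM was -0.98 without GV replicate 9 and -1.97 without Ctrl_IVM replicate 8. VPS11 and VPS18 had GV means of 4.83 and 8.71 CPM and means under 1.1 CPM in both matured groups. At the HOPS end, VPS41 stood at 146 to 237 CPM (median 169) in CNP_IVM and 97.3 to 197 CPM (median 143) in Ctrl_IVM, against 13.9 to 162 CPM (median 120.2) in GV. VPS39 stood at 5.20 to 11.7 CPM (median 7.83) in CNP_IVM and 10.7 to 28.8 CPM (median 20.04) in Ctrl_IVM, against 0.272 to 23.1 CPM (median 13.8) in GV. Both overlapped with GV. At the CORVET end, VPS8 stood at 109 to 246 CPM (median 137) in CNP_IVM and 90.8 to 288 CPM (median 181) in Ctrl_IVM, against 33.95 to 119 CPM (median 77.4) in GV, with log2 differences of 1.11 for CNP_IVM and 1.27 for Ctrl_IVM. The CNP_IVM value was 0.98 without GV replicate 9 and 0.997 without CNP_IVM replicate 7. VPS33B, a relative of VPS33A that works outside HOPS, had group medians of 1.10 CPM in CNP_IVM, 0.538 CPM in Ctrl_IVM and 4.12 CPM in GV oocytes. Over the 8 genes, 1 was higher and 5 lower by 2-fold or more in CNP_IVM, and 1 was higher and 5 lower in Ctrl_IVM against GV, with medians of -1.70 in CNP_IVM and -1.53 in Ctrl_IVM. TMM factors gave 2 higher and 4 lower in CNP_IVM and 1 higher and 5 lower in Ctrl_IVM (medians -1.18 and -1.34). Leaving out GV replicate 9 gave 0 higher and 5 lower in CNP_IVM and 1 higher and 4 lower in Ctrl_IVM (medians -1.13 and -1.27).

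ESCRT complexes bud vesicles into endosomes, and the ATPase VPS4 takes them apart. Among the 8 ESCRT genes that passed the filter, 0 were higher by 2-fold and 4 lower in CNP_IVM, and 0 higher and 4 lower in Ctrl_IVM. With TMM factors VPS37A was counted as higher in both, at 1.46 and 1.08. VPS25, of ESCRT-II, stood at 23.6 to 68.6 CPM (median 42.1) in CNP_IVM and 46.7 to 122 CPM (median 76.6) in Ctrl_IVM, against 156 to 288 CPM (median 214) in GV. VPS28, of ESCRT-I, stood at 6.68 to 21.96 CPM (median 12.9) in CNP_IVM and 17.7 to 41.5 CPM (median 28.9) in Ctrl_IVM, against 44.6 to 93.7 CPM (median 70.7) in GV. Neither gene had a matured oocyte in the GV range. VPS36, the partner of VPS25 in ESCRT-II, stood at 8.61 to 17.5 CPM (median 11.9) in CNP_IVM and 7.69 to 15.2 CPM (median 10.9) in Ctrl_IVM, against 0 to 13.97 CPM (median 10.4) in GV, with overlapping groups. VPS37A, of ESCRT-I, stood at 44.6 to 120.0 CPM (median 58.1) in CNP_IVM and 23.8 to 111 CPM (median 56.1) in Ctrl_IVM, against 20.4 to 48.8 CPM (median 39.04) in GV. Its paralog VPS37B stood at 5.66 to 21.1 CPM (median 12.5) in CNP_IVM and 4.27 to 26.4 CPM (median 13.1) in Ctrl_IVM, against 14.9 to 31.5 CPM (median 20.2) in GV. VPS37D was at 4.20 to 14.3 CPM in GV and at most 1.12 CPM in a matured oocyte, and VPS37C, below the filter, reached at most 2.25 CPM, in CNP_IVM. VPS4A stood at 10.8 to 19.1 CPM (median 13.9) in CNP_IVM and 9.96 to 41.6 CPM (median 17.6) in Ctrl_IVM, against 47.7 to 102 CPM (median 59.9) in GV, lower in every matured oocyte. VPS4B stood at 2.72 to 7.62 CPM (median 4.19) in CNP_IVM and 1.14 to 10.2 CPM (median 5.76) in Ctrl_IVM, against 2.85 to 6.14 CPM (median 4.47) in GV, and its groups overlapped.

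GARP and EARP tether vesicles at the Golgi and at recycling endosomes. VPS50, the subunit that defines EARP, stood at 71.04 to 226 CPM (median 111) in CNP_IVM and 122 to 258 CPM (median 137) in Ctrl_IVM, against 12.8 to 59.5 CPM (median 47.6) in GV, above GV in every matured oocyte (1.46 and 1.80 on the log2 scale). VPS54, which takes its place in GARP, stood at 2.32 to 10.5 CPM (median 6.86) in CNP_IVM and 0.550 to 5.48 CPM (median 2.35) in Ctrl_IVM, against 0 to 4.25 CPM (median 3.39) in GV. Its groups overlapped, and its log2 difference of 1.06 for CNP_IVM was 0.89 without GV replicate 9, and also fell short of 2-fold without CNP_IVM replicate 3 (0.92), CNP_IVM replicate 6 (0.97) or GV replicate 3 (0.98). VPS53, shared by both, stood at 10.2 to 16.6 CPM (median 13.6) in CNP_IVM and 16.5 to 44.9 CPM (median 22.6) in Ctrl_IVM, against 38.2 to 63.3 CPM (median 47.4) in GV, below GV in every CNP_IVM oocyte. VPS51 and VPS52 had GV means of 6.06 and 6.72 CPM and lower means in both matured groups. VPS45, which guides membrane fusion at endosomes, stood at 89.2 to 279.8 CPM (median 194) in CNP_IVM and 171 to 449 CPM (median 246) in Ctrl_IVM, against 63.2 to 207 CPM (median 196) in GV, with overlap. VPS9D1, named for a domain found in activators of endosomal GTPases, stood at 0.796 to 3.98 CPM (median 1.01) in CNP_IVM and 1.04 to 16.4 CPM (median 3.59) in Ctrl_IVM, against 41.04 to 102 CPM (median 61.6) in GV, with log2 differences of -4.76 for CNP_IVM and -3.33 for Ctrl_IVM. VPS72 carries a VPS name but codes for a histone chaperone subunit of a chromatin remodelling complex. It stood at 803 to 1526 CPM (median 1204) in CNP_IVM and 1085 to 1929 CPM (median 1239) in Ctrl_IVM, against 549 to 794 CPM (median 567) in GV, above GV in every matured oocyte.

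Summed over its genes, the vacuolar ATPase family made up 651 to 859 CPM (median 771) in CNP_IVM and 819 to 1507 CPM (median 1082) in Ctrl_IVM, against 1875 to 2309 CPM (median 2182) in GV oocytes. Both matured groups lay below GV without overlap, and the upper end of CNP_IVM overlapped Ctrl_IVM. The ATG family summed to 287 to 373 CPM (median 346) in CNP_IVM and 338 to 472 CPM (median 383) in Ctrl_IVM, against 574 to 717 CPM (median 612) in GV. Both sums lean on abundant genes. ATP6V1F averaged 11.8 CPM in CNP_IVM, 21.6 CPM in Ctrl_IVM and 404 CPM in GV, and ATG101 averaged 7.65, 10.6 and 146 CPM. Of 17 vacuolar ATPase genes past the filter, 3 in CNP_IVM and 6 in Ctrl_IVM had higher means than in GV. Of 17 ATG genes, 5 and 6 did, and of all 11852 genes, 4333 and 5089. The VPS family summed to 2165 to 3012 CPM (median 2572) in CNP_IVM and 2714 to 3528 CPM (median 2978) in Ctrl_IVM, against 2056 to 2269.7 CPM (median 2170.5) in GV, and without VPS72 to 1212 to 1799 CPM (median 1395), 1297 to 2044 CPM (median 1628) and 1262 to 1699 CPM (median 1611) in the same groups. Every Ctrl_IVM oocyte lay above every GV oocyte with VPS72 in the sum, and the 3 groups overlapped without it.

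Between the 2 matured groups the members differed less. Of the 67, 0 were higher by 2-fold or more in CNP_IVM than in Ctrl_IVM oocytes and 10 (14.9%) were lower by as much, where 1.86% and 14.8% of all genes were, so the members' share of lower genes was near that of all genes. With TMM factors 1 was higher, VPS54, and 5 were lower, beside 466 higher and 980 lower of all genes, where the deposited scale gave 220 and 1754. The median log2 difference was -0.42 for ATG, -0.47 for vacuolar ATPase and -0.23 for VPS genes, beside -0.28 over all genes, and TMM factors moved these to -0.23, -0.19, 0.011 and -0.052, turning the sign for VPS. Groups did not overlap for 1 member, ATP6V0D1, on the lower side and 0 on the higher side, where the background was 2.60% and 1.38%.

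ATP6V0D1 averaged 11.7 ± 4.52 CPM (SD, n = 7) in CNP_IVM and 50.3 ± 23.8 CPM (SD, n = 8) in Ctrl_IVM oocytes, a log2 difference of -2.02 that was -1.67 with TMM factors and -2.13 to -1.84 when each oocyte was left out in turn. Summed over the oocytes of a group, its reads came to 11.8 CPM (11.4 to 12.2) in CNP_IVM and 52.8 CPM (51.9 to 53.6) in Ctrl_IVM, with exact 95% Poisson intervals that cover counting error only. ATP6V1B2 averaged 84.7 ± 20.2 CPM (SD, n = 7) in CNP_IVM and 216 ± 78.1 CPM (SD, n = 8) in Ctrl_IVM, a log2 difference of -1.34, and the highest CNP_IVM oocyte, at 112 CPM, passed only the lower end of Ctrl_IVM at 100.3 CPM. These were the members with a mean of at least 10 CPM whose difference stayed past 2-fold with TMM factors. For ATP6V1B2 it was then -1.01, at the 2-fold line.

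VPS39, of the HOPS complex, averaged 8.25 ± 2.66 CPM (SD, n = 7) in CNP_IVM and 19.6 ± 5.95 CPM (SD, n = 8) in Ctrl_IVM, a log2 difference of -1.16 that TMM factors moved to -0.89. ATP6V0B averaged 50.6 ± 18.4 CPM (SD, n = 7) in CNP_IVM and 104 ± 20.9 CPM (SD, n = 8) in Ctrl_IVM (-1.02, or -0.75 with TMM factors). VPS28 averaged 13.9 ± 5.09 CPM (SD, n = 7) in CNP_IVM and 28.8 ± 7.72 CPM (SD, n = 8) in Ctrl_IVM (-1.004, or -0.72). Both lay at the 2-fold line. ATP6V0B fell short of it without CNP_IVM replicate 3, 4, 5 or 7 or Ctrl_IVM replicate 9, and VPS28 without CNP_IVM replicate 1, 3, 4 or 5 or Ctrl_IVM replicate 1, 8, 9 or 10. Over all oocytes left out in turn the values were -1.20 to -0.92 for ATP6V0B and -1.14 to -0.89 for VPS28. ATP6V0B was -0.92 without Ctrl_IVM replicate 9, its highest Ctrl_IVM value. The other 5 members past 2-fold, VPS9D1, ATG9A, VPS51, ATG16L2 and ATG4D, had means under 10 CPM in both groups. Without Ctrl_IVM replicate 8, 6 members were lower, in place of 10.

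**Figure D5:**
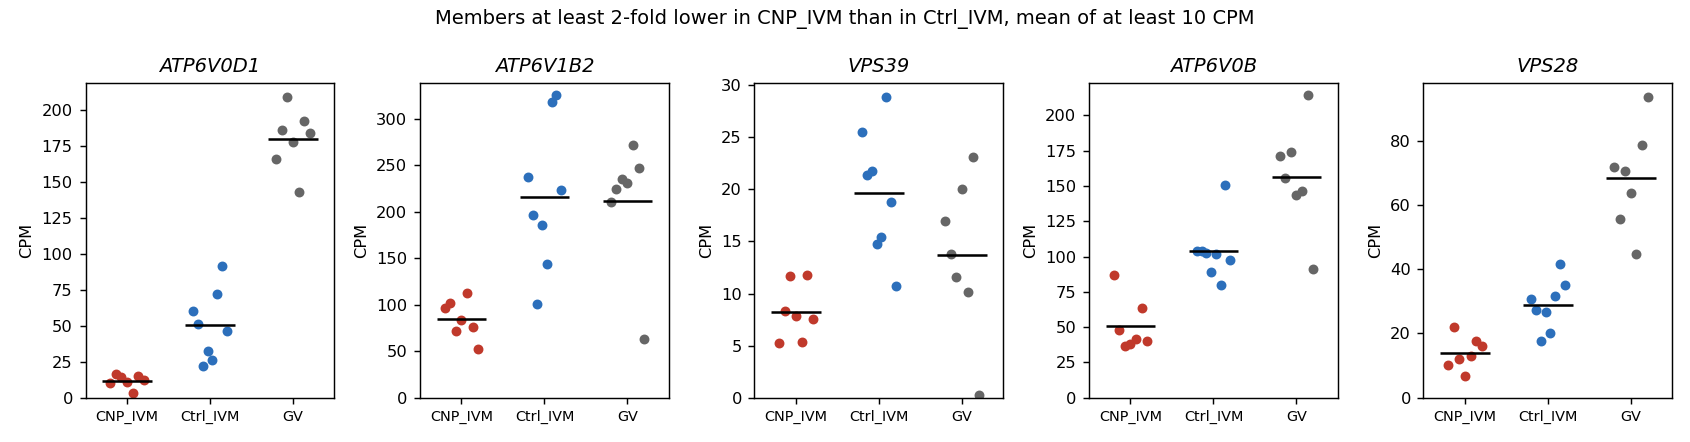
CPM on linear axes from 0 of the 5 members at least 2-fold lower in CNP_IVM than in Ctrl_IVM oocytes whose mean reached 10 CPM in one of them, with 1 point per oocyte and a black line at each group's mean, for 7 CNP_IVM, 8 Ctrl_IVM and 7 GV oocytes. CNP_IVM and Ctrl_IVM oocytes do not overlap for ATP6V0D1 (at most 16.3 CPM against at least 22 CPM) and overlap for the other 4 genes.

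In the other direction, VPS54 averaged 6.49 ± 2.80 CPM (SD, n = 7) in CNP_IVM and 2.87 ± 1.57 CPM (SD, n = 8) in Ctrl_IVM, a log2 difference of 0.95. Other members far from GV lay closer together in the matured groups. ATP6V1A had a log2 difference of 0.058, VPS29 of 0.097, ATP6V1E1 of -0.12 (0.19 with TMM factors) and ATG101 of -0.42, with overlapping oocytes for each. By group medians, 3.96 CPM in CNP_IVM and 9.73 CPM in Ctrl_IVM, ATG101 was lower by more than 2-fold. ATG5 averaged 79.95 ± 14.8 CPM (SD, n = 7) in CNP_IVM and 118 ± 14.1 CPM (SD, n = 8) in Ctrl_IVM, and VPS35 averaged 141 ± 17.5 CPM (SD, n = 7) and 199 ± 28.6 CPM (SD, n = 8) in the same groups, log2 differences of -0.56 and -0.49. For both the groups overlapped by a narrow margin.

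Other genes of these pathways, from lists written out by name, likewise went both ways against GV. The shares of all genes to set beside them are 15.3% higher and 42.0% lower in CNP_IVM and 15.9% and 33.0% in Ctrl_IVM. Of 16 autophagy initiation genes past the filter, 2 were higher and 4 lower by 2-fold or more in CNP_IVM, and 3 were higher and 2 lower in Ctrl_IVM, with medians of -0.056 in CNP_IVM and 0.50 in Ctrl_IVM. TMM factors gave 5 higher and 3 lower in CNP_IVM and 5 higher and 1 lower in Ctrl_IVM (medians 0.29 and 0.73). Without GV replicate 9 there were 1 higher and 4 lower in CNP_IVM and 2 higher and 2 lower in Ctrl_IVM (medians -0.054 and 0.49). The sign of the CNP_IVM median and its balance of higher and lower genes thus turned with TMM factors. RB1CC1, the scaffold of the initiating kinase complex, stood at 73.4 to 134 CPM (median 108) in CNP_IVM and 60.9 to 127 CPM (median 83.2) in Ctrl_IVM, against 17.1 to 43.8 CPM (median 37.5) in GV, higher in every matured oocyte. ZFYVE1, which marks the membrane sites where autophagosomes form, stood at 89.9 to 202 CPM (median 133) in CNP_IVM and 86.2 to 173 CPM (median 103) in Ctrl_IVM, against 249 to 622 CPM (median 529) in GV, lower in every matured oocyte. AMBRA1, a regulator of that step, stood at 4.20 to 11.2 CPM (median 7.98) in CNP_IVM and 10.5 to 44.2 CPM (median 38.2) in Ctrl_IVM, against 19.4 to 90.6 CPM (median 26.1) in GV.

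Of 16 genes of ATG8 proteins, cargo receptors and fusion factors, 2 were higher and 6 lower by 2-fold or more in CNP_IVM, and 2 were higher and 6 lower in Ctrl_IVM, with medians of -0.83 in CNP_IVM and -0.21 in Ctrl_IVM. TMM factors gave 3 higher and 6 lower in CNP_IVM and 2 higher and 5 lower in Ctrl_IVM (medians -0.29 and 0.052). With GV replicate 9 left out there were 3 higher and 5 lower in CNP_IVM and 3 higher and 5 lower in Ctrl_IVM (medians -0.60 and 0.016). The sign of the Ctrl_IVM median turned under both. The receptor gene TAX1BP1 stood at 1241 to 1592 CPM (median 1338) in CNP_IVM and 850.3 to 1704 CPM (median 1180.1) in Ctrl_IVM, against 91.7 to 539 CPM (median 471) in GV. The fusion factor genes VAMP8 and SNAP29 were lower in all matured oocytes, with VAMP8 at 1.66 to 3.77 CPM (median 2.25) in CNP_IVM and 1.44 to 6.23 CPM (median 3.43) in Ctrl_IVM, against 30.1 to 44.4 CPM (median 37.1) in GV. SNAP29 stood at 4.65 to 15.6 CPM (median 5.96) in CNP_IVM and 8.73 to 70.1 CPM (median 27.7) in Ctrl_IVM, against 144 to 274 CPM (median 209) in GV.

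Of 10 further vacuolar ATPase genes, 2 were higher and 3 lower by 2-fold or more in CNP_IVM, and 2 were higher and 2 lower in Ctrl_IVM, with medians of 0.17 in CNP_IVM and 0.47 in Ctrl_IVM. TMM factors gave 4 higher and 2 lower in CNP_IVM and 3 higher and 2 lower in Ctrl_IVM (medians 0.70 and 0.68). Leaving out GV replicate 9 gave 2 higher and 2 lower in CNP_IVM and 2 higher and 2 lower in Ctrl_IVM (medians 0.18 and 0.81). In CNP_IVM the higher genes outnumbered the lower ones with TMM factors and not in the other 2 counts given here. DMXL1, of the RAVE-type complex that helps V1 join V0, stood at 38 to 73.9 CPM (median 54.1) in CNP_IVM and 34.8 to 104 CPM (median 52.6) in Ctrl_IVM, against 3.76 to 16.7 CPM (median 12.1) in GV. TCIRG1, the a3 isoform of the a subunit, best known from bone-resorbing osteoclasts, stood at 0.0512 to 3.07 CPM (median 0.392) in CNP_IVM and 0.137 to 16.3 CPM (median 3.60) in Ctrl_IVM, against 20.5 to 84.6 CPM (median 37.5) in GV. Of 22 lysosome genes, 2 were higher and 12 lower by 2-fold or more in CNP_IVM, and 1 was higher and 7 lower in Ctrl_IVM, with medians of -1.35 in CNP_IVM and -0.48 in Ctrl_IVM. TMM factors gave 3 higher and 11 lower in CNP_IVM and 2 higher and 5 lower in Ctrl_IVM (medians -0.85 and -0.19). Without GV replicate 9 there were 2 higher and 9 lower in CNP_IVM and 3 higher and 6 lower in Ctrl_IVM (medians -0.84 and -0.071). LAMP2, a lysosome membrane protein, stood at 362 to 565 CPM (median 508) in CNP_IVM and 563 to 887 CPM (median 713) in Ctrl_IVM, against 81.2 to 209 CPM (median 165) in GV. LAMTOR2 and LAMTOR4, which anchor nutrient signalling at the lysosome, averaged 3.92 and 5.69 CPM in CNP_IVM and 10.1 and 7.25 CPM in Ctrl_IVM, against 267 and 248 CPM in GV oocytes.

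Of 21 further ESCRT genes, 3 were higher and 10 lower by 2-fold or more in CNP_IVM, and 3 were higher and 9 lower in Ctrl_IVM, with medians of -0.40 in CNP_IVM and -0.48 in Ctrl_IVM. TMM factors gave 6 higher and 9 lower in CNP_IVM and 6 higher and 8 lower in Ctrl_IVM (medians 0.13 and -0.20). With GV replicate 9 left out there were 5 higher and 10 lower in CNP_IVM and 4 higher and 8 lower in Ctrl_IVM (medians -0.45 and -0.53). The sign of the CNP_IVM median turned with TMM factors. STAM, of the cargo-binding ESCRT-0, had the highest Ctrl_IVM difference, at 1.74, and stood at 9.33 to 28.1 CPM (median 19.2) in CNP_IVM and 13.05 to 63.9 CPM (median 39.6) in Ctrl_IVM, against 6.71 to 18.97 CPM (median 8.69) in GV. CHMP2A, of the ESCRT-III filament, stood at 29.4 to 45.5 CPM (median 42.9) in CNP_IVM and 62.3 to 136 CPM (median 107) in Ctrl_IVM, against 1010.3 to 1547 CPM (median 1174) in GV. All 3 groups were apart. Its paralog CHMP2B stood at 45.9 to 65.9 CPM (median 57.5) in CNP_IVM and 39.2 to 64.5 CPM (median 48.2) in Ctrl_IVM, against 17.3 to 27.7 CPM (median 23.2) in GV, higher in every matured oocyte. Of 19 further endosomal sorting genes, 4 were higher and 6 lower by 2-fold or more in CNP_IVM, and 3 were higher and 6 lower in Ctrl_IVM, with medians of -0.81 in CNP_IVM and -0.15 in Ctrl_IVM. TMM factors gave 4 higher and 6 lower in CNP_IVM and 5 higher and 6 lower in Ctrl_IVM (medians -0.25 and 0.11). Leaving out GV replicate 9 gave 4 higher and 8 lower in CNP_IVM and 2 higher and 6 lower in Ctrl_IVM (medians -0.58 and -0.077). The sign of the Ctrl_IVM median turned with TMM factors. WASHC4, of the WASH complex that builds actin on endosomes, stood at 5.23 to 81.9 CPM (median 26.4) in CNP_IVM and 39.4 to 88.05 CPM (median 72.9) in Ctrl_IVM, against 0.763 to 18.4 CPM (median 10.1) in GV. CCZ1, of the complex that activates the GTPase RAB7, stood at 316 to 497 CPM (median 429) in CNP_IVM and 282 to 543 CPM (median 446) in Ctrl_IVM, against 63.7 to 161 CPM (median 152) in GV. CCDC22, of a complex that works with retriever, stood at 0.644 to 1.54 CPM (median 0.947) in CNP_IVM and 0 to 5.92 CPM (median 1.87) in Ctrl_IVM, against 16.8 to 82.7 CPM (median 20.03) in GV.

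Between the matured groups, where 14.8% of all genes were lower and 1.86% higher, the same 6 lists of 16, 16, 10, 22, 21 and 19 genes had 4, 2, 3, 7, 6 and 5 genes at least 2-fold lower in CNP_IVM, in the order above, and 1 gene at least 2-fold higher. With TMM factors 3, 1, 2, 3, 4 and 2 were lower, and VMA21 and TFE3 were higher. The gene higher without TMM factors was TFE3, a transcription factor of lysosome genes, at 19.3 to 91.7 CPM (median 44.3) in CNP_IVM and 15.5 to 38.4 CPM (median 22.1) in Ctrl_IVM oocytes, with overlap. The highest of the other 5 lists were ZFYVE1 (0.33 on the log2 scale), GABARAPL2 (0.46), VMA21 (0.91, or 1.13 with TMM factors), CHMP5 (0.48) and SNX27 (0.72). The lowest of each list with a mean of at least 10 CPM were AMBRA1 (-1.84 on the log2 scale), SNAP29 (-1.78), ROGDI (-1.20), LAMP1 (-1.88), CHMP7 (-1.65) and WASHC3 (-1.68).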

How the data were processed

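Per the labels' protocols, oocytes were frozen singly, and cDNA was made with a SMART-Seq v4 kit, primed on poly(A) tails. Libraries were built with Nextera XT and carry no strand information. The tools in the submitters' processing notes are HISAT2 2.2.1, featureCounts 2.0.1, Trim Galore 0.6.7, edgeR and FastQC, with no role given. The build there is GRCm39, a mouse one, while 13356 of the 13502 listed names are cattle symbols of RefSeq assembly ARS-UCD2.0. No coordinates or sequences are given. The authors deposited 1 table, named for TPM, whose values are CPM, since all values of a library are whole multiples of what 1 read is worth (100% whole within 0.01 read). Columns were matched by the names in the sample descriptions and groups taken from titles. A level is a share of a poly(A)-primed library, so transcript amount, tail length and the make-up of the other RNA cannot be told apart.

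Group means were compared as log2 with a pseudocount of 1 CPM, for genes at 1 CPM or more in 6 or more libraries, and counted past 2-fold. A count test on the recovered reads was not run, because oocytes with no named donor are not replicates. SDs describe the spread between oocytes. The closest pair of libraries of a group differed by a chi-square of 37.96 per degree of freedom, so none were copies. The genes, lists and subgroups were chosen with earlier results of these data known. Values are given for the highest and lowest member of each subgroup in each comparison with a mean of at least 10 CPM, for every member 2-fold apart between the matured groups with such a mean, and for further members chosen by role. Per RefSeq, 23 of the 70 members overlap another gene (ATG101, ATG10, ATG16L1, ATG2B, ATG4C, ATG4D, ATG5, ATG7, ATP6V0A1, ATP6V0A2, ATP6V0A4, ATP6V0E2, ATP6V1C2, ATP6V1H, VPS4A, VPS8, VPS13B, VPS13D, VPS26A, VPS33A, VPS37A, VPS51 and VPS52), and reads of such genes may be shared. TMM factors came from edgeR 4.0.16 in R 4.3.3, other values from Python 3.11.15 with pandas 2.3.3 and numpy 2.4.6. Steps were tested on simulated reads.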

Additional observations from a re-analysis of the deposited data

Results flagged for a closer look

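Single oocytes lay far from the rest of their group in 38 of 219 combinations of a group with a member or family sum, by the gap to the nearest oocyte as a share of the group's range. The threshold is one that chance passes in about 1 in 20 groups of normally spread, independent values. These values are skewed and share libraries, so how often chance passes it here is not known. GV replicate 9 accounted for 16 of the 18 in GV. It was far above the other GV oocytes for ATG13 (62.7 CPM, next 28.9 CPM), ATG2A (140.5 CPM, next 37.9 CPM), ATG4C (10.5 CPM, next 4.87 CPM), ATG9A (64.5 CPM, next 2.15 CPM), ATP6V0E2 (19.7 CPM, next 2.84 CPM), VPS16 (116 CPM, next 55.2 CPM), VPS33B (32.05 CPM, next 7.04 CPM), VPS53 (63.3 CPM, next 48.8 CPM) and VPS72 (794 CPM, next 608 CPM), and far below them for ATG7 (53.4 CPM, next 138 CPM), ATP6V1B2 (63.4 CPM, next 210.1 CPM), VPS11 (0 CPM, next 4.43 CPM), VPS13C (0 CPM, next 10.8 CPM), VPS36 (0 CPM, next 8.36 CPM), VPS45 (63.2 CPM, next 162 CPM) and VPS50 (12.8 CPM, next 41.1 CPM). The other 2 GV values were replicate 4 for ATP6V1G2 (2.45 CPM, next 0.877 CPM) and replicate 7 for VPS37B (31.5 CPM, next 21.3 CPM). In Ctrl_IVM the 12 high values were those of replicate 1 for ATP6V1FNB (0.428 CPM, next 0.0844 CPM) and VPS33B (3.07 CPM, next 1.27 CPM), replicate 5 for VPS13C (78.98 CPM, next 55.6 CPM), replicate 7 for ATP6V0A4 (9.52 CPM, next 3.997 CPM), replicate 8 for ATG13 (24.5 CPM, next 10.96 CPM), VPS16 (69.6 CPM, next 19.2 CPM), VPS26C (44.3 CPM, next 19.6 CPM), VPS51 (12.02 CPM, next 4.64 CPM) and VPS9D1 (16.4 CPM, next 7.37 CPM) and replicate 9 for ATP6V0B (151 CPM, next 104 CPM), ATP6V1D (10.2 CPM, next 2.83 CPM) and ATP6V1H (118 CPM, next 67.6 CPM). In CNP_IVM the 8 high values were those of replicate 1 for ATG4B (0.687 CPM, next 0.112 CPM), VPS37C (2.25 CPM, next 0.746 CPM) and VPS37D (0.555 CPM, next 0.210 CPM), replicate 2 for VPS26B (4.84 CPM, next 2.15 CPM) and VPS9D1 (3.98 CPM, next 1.27 CPM), replicate 5 for ATG4A (25.2 CPM, next 17.1 CPM) and ATP6V0E2 (0.517 CPM, next 0.0514 CPM) and replicate 6 for VPS37A (120.0 CPM, next 76.02 CPM). Several of these rest on levels under 5 CPM.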

How the results depend on the processing

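With TMM factors 5 of 10 members past 2-fold stayed past it between CNP_IVM and Ctrl_IVM, 41 of 45 between CNP_IVM and GV and 38 of 41 between Ctrl_IVM and GV. No called direction turned between the deposited scale, TMM factors, a pseudocount of 0.1 CPM and medians in place of means. Between CNP_IVM and Ctrl_IVM, 1 member was higher, in place of 0, with TMM factors, with a pseudocount of 0.1 CPM, with medians and at 1.5-fold, and 0 to 1 with an oocyte left out. There, 5 members were lower with TMM factors, 16 with a pseudocount of 0.1 CPM and 19 at 1.5-fold, in place of 10, and 6 to 11 with an oocyte left out. With medians ATG101 and VPS26B also passed 2-fold on the lower side, and ATG16L2 and VPS51 fell short of it. The median log2 difference for CNP_IVM against Ctrl_IVM became -0.23 for ATG, -0.19 for vacuolar ATPase and 0.011 for VPS genes with TMM factors, and -0.31 for vacuolar ATPase genes with no filter on low values. Against GV, 19 members were higher in Ctrl_IVM at 1.5-fold, and in CNP_IVM 19 with TMM factors and 17 at 1.5-fold. The CNP_IVM medians against GV became -1.95 for ATG genes with a pseudocount of 0.1 CPM, -0.81 for vacuolar ATPase and -0.20 for VPS genes with TMM factors, and -0.79 for vacuolar ATPase genes with no filter. The sign of ATG9A for Ctrl_IVM against GV turned to 0.073 without GV replicate 9, and was -2.29 to 0.073 over the oocytes left out. Leaving out 1 oocyte also took values just under 2-fold past it for ATG4A (1.04 without GV replicate 2) and VPS37A (up to 1.02, without GV replicate 7) in CNP_IVM against GV, and for ATP6V0A2 (8 oocytes, up to 1.20) and VPS53 (-1.05 without Ctrl_IVM replicate 9) in Ctrl_IVM against GV. Where the alternative's own construction does not show it, the cause was not tested. No paired analysis was possible because the results come from no test and the replicate numbers only name oocytes.

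Each group counts as 1 sample, so nothing here estimates how donors or cultures vary. Counting error is small for most members at these depths, and wide for those under 1 CPM. Poly(A) tail length and transcript amount cannot be told apart in these libraries.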

Other observations

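Pairs of related genes outside the 3 name families, picked after their values were seen, also differed from each other. MAP1LC3A, an ATG8 gene, stood at 0.700 to 3.25 CPM (median 1.64) in CNP_IVM and 0.496 to 7.26 CPM (median 3.32) in Ctrl_IVM, against 20.5 to 43.9 CPM (median 36.4) in GV, lower in every matured oocyte. Its paralog MAP1LC3B stood at 249 to 324 CPM (median 281) in CNP_IVM and 203 to 289 CPM (median 249.7) in Ctrl_IVM, against 201 to 297 CPM (median 221) in GV, with overlapping groups. LAMP1, which like LAMP2 codes for a lysosome membrane protein, stood at 1.80 to 11.3 CPM (median 3.79) in CNP_IVM and 3.37 to 42.4 CPM (median 27.5) in Ctrl_IVM, against 5.65 to 89.4 CPM (median 10.02) in GV. Its groups overlapped, whereas every matured oocyte lay above every GV oocyte for LAMP2. These are values of these oocytes only, and no test was made of them.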
